A study of Mus musculus with 18 samples.

Results

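Synthesis of nicotinamide adenine dinucleotide (NAD) and the handling of nicotinamide were followed in mouse liver through 10 genes, Nampt, Naprt, Qprt, Acmsd, Nadsyn1, Nmnat1, Nmnat3, Nnmt, Pnp and Sirt1. They were taken by gene symbol from the 19057 genes of the deposited expression table, where each of the 10 had a row of its own. They were chosen by pathway, with earlier results on the RPKM values of these same 18 libraries and on the differences between their groups in view, so that the p-values place a difference among all genes of the table and give no independent support for it.

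NAD carries electrons between metabolic reactions and is also used up by sirtuins and poly(ADP-ribose) polymerases, which release nicotinamide. The liver rebuilds NAD from nicotinamide (salvage), from nicotinic acid (the Preiss-Handler route) and from tryptophan through the kynurenine pathway (de novo synthesis), and it removes surplus nicotinamide by methylation or oxidation. Nampt catalyses the slow step of salvage and is a known output of the circadian clock.

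RNA came from the livers of male ICR mice at 10 weeks of age, in 6 groups of 3 libraries. Con mice were fed the regular diet and given saline. HS mice were fed a high-fat diet and given 1 injection of streptozotocin (STZ), a poison of the beta cells that make insulin. A10-FMT mice were treated like HS mice and were inoculated with small-intestinal microbiota, pooled from donors dosed with 10 mg/kg of alginate oligosaccharide (AOS), a breakdown product of a seaweed polysaccharide. Con-FMT mice were treated in the same way with microbiota pooled from control donors. The A10 group (AOS at 10 mg/kg) and the HS+A10 group (high-fat diet, STZ and the same AOS) are known from the labels alone. High-fat diet and STZ were thus shared by HS, HS+A10, A10-FMT and Con-FMT. Whether each library came from 1 animal is not stated in the sources used here, so the p-values measure the spread between libraries, which may in part be technical.

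Values are RPKM, read numbers scaled to gene length and library size, and they summed to between 692818 and 806937 per library. The relative depth of the libraries lay between 0.953 and 1.05, but the reads themselves were not counted here, so a value carries no counting error and its precision comes from the replicates, 3 per group. All 8 hepatocyte markers were present, with a sum of 34504 to 57314 RPKM. In bulk liver, fewer cells of a type and less RNA per cell cannot be told apart. Con 3 lay between Con 1 and Con 2 for 98.6% of the 140 genes that differed between those libraries by at least 1 on the log2 scale, and A10 3 lay between A10 1 and A10 2 for 96.3% of 135 genes, against 6.52% to 74.6% for the other 16 libraries. Con 3 lay between Con 1 and Con 2 for 7 of the 10 genes, so for results that rest on Con or A10 the calls lost without these libraries are given. The 18 libraries share 1 estimate of the spread per gene in the fit described below, so Con 3 and A10 3 also enter the p-values of the other comparisons. Those were not rerun with only these libraries left out. For them, the fits of only the groups compared hold neither library. Pancreatic acinar genes made up 3.09% of the RPKM of Con-FMT 3, with a sum of 21684 RPKM against at most 50.01 in any other library.

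Groups were compared by limma on log2(RPKM + 1), in 1 fit of all 18 libraries, for 10204 genes, those that averaged 1 RPKM or more over all libraries. The log2 changes below are on this scale, which understates the change of low genes. All 10 genes passed this filter. A gene was called at a two-sided Benjamini-Hochberg adjusted p under 0.05 over all 10204 genes.

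The bases in front of 3 of the genes are shown because Nampt rose and Pnp fell relative to HS in the groups where most clock genes also changed, and Sirt1 alone of the 8 genes with a promoter matched the clock motif. The table of RefSeq promoters (GRCm38.p6) held an entry for 8 of the 10 genes and none for Naprt and Nnmt. Each window covers the 250 bases before the start of the gene, 5′ to 3′ on the strand of the gene. Capitals mark CACGTG, the E-box bound by the clock proteins, or AGGTCA on either strand, a core element bound by nuclear receptors. The windows are chr12:32820085-32820334 (plus strand) for Nampt, chr14:50944053-50944302 (plus) for Pnp and chr10:63339036-63339285 (minus) for Sirt1.
Nampt: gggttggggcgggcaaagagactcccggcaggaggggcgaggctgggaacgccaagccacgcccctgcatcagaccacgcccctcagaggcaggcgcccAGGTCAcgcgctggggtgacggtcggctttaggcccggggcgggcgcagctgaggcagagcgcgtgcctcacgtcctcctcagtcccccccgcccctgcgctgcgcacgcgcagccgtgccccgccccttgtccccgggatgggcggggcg
Pnp: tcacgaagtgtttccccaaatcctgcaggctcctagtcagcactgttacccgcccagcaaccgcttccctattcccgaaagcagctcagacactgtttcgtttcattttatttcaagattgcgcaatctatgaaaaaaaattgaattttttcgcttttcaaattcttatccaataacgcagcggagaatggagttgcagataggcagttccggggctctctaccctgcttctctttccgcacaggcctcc
Sirt1: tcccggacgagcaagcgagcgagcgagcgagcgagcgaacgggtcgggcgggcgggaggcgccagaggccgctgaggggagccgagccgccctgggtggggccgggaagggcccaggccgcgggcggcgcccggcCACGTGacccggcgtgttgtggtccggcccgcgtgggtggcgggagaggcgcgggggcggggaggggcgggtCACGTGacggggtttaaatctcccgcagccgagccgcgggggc
The window of Sirt1 held CACGTG at 115 and at 43 bases before the start, where 6.02% of all 32851 promoter windows held at least 1 match. Sirt1 is shown because it matched, so that share does not measure how unusual its match is. In the main fit Sirt1 was called in no comparison. AGGTCA was found 151 bases before the start of Nampt, and 14.0% of all windows held it. Pnp held neither. A match describes letters in this window and is not shown to be a binding site.

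Nampt, on chromosome 12 of GRCm38 (32820335 to 32853369), encodes the enzyme that turns nicotinamide into nicotinamide mononucleotide. It was at 7.43, 9.23 and 8.13 RPKM in Con, at 8.93, 8.56 and 9.59 in A10, and at 10.2, 9.87 and 10.1 in HS (replicates 1, 2 and 3). It was at 21.8, 10.6 and 19.8 RPKM in HS+A10, at 18.4, 17.4 and 14.0 in A10-FMT, and at 26.2, 28.8 and 25.1 in Con-FMT. Every library of the 3 groups that received AOS or microbiota on top of diet and STZ lay above every HS library, although HS+A10 2 did so by little, and every Con-FMT library lay above all others. The HS and Con libraries did not overlap either, but their difference was within the spread that the fit allowed (log2 change 0.26, standard error 0.18, limma adjusted p = 0.324). Compared with HS, Nampt rose by 1.32 on the log2 scale in Con-FMT (standard error 0.18, limma adjusted p = 0.000208), which was 2.66 times the mean RPKM of HS. The increase was 0.68 in HS+A10 (adjusted p = 0.0370 by limma) and 0.66 in A10-FMT (adjusted p = 0.0176 by limma). Compared directly, Nampt was lower in A10-FMT than in Con-FMT by a log2 change of -0.66 (limma adjusted p = 0.0196).
The call in HS+A10 was lost without HS 2, HS 3, HS+A10 1 or HS+A10 3 (log2 changes of 0.66, 0.68, 0.49 and 0.56). That in A10-FMT against HS was lost without HS 2 or A10-FMT 2 (0.65 and 0.63), and that against Con-FMT without A10-FMT 3 or Con-FMT 2 (-0.55 and -0.61).

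**Figure D1:**
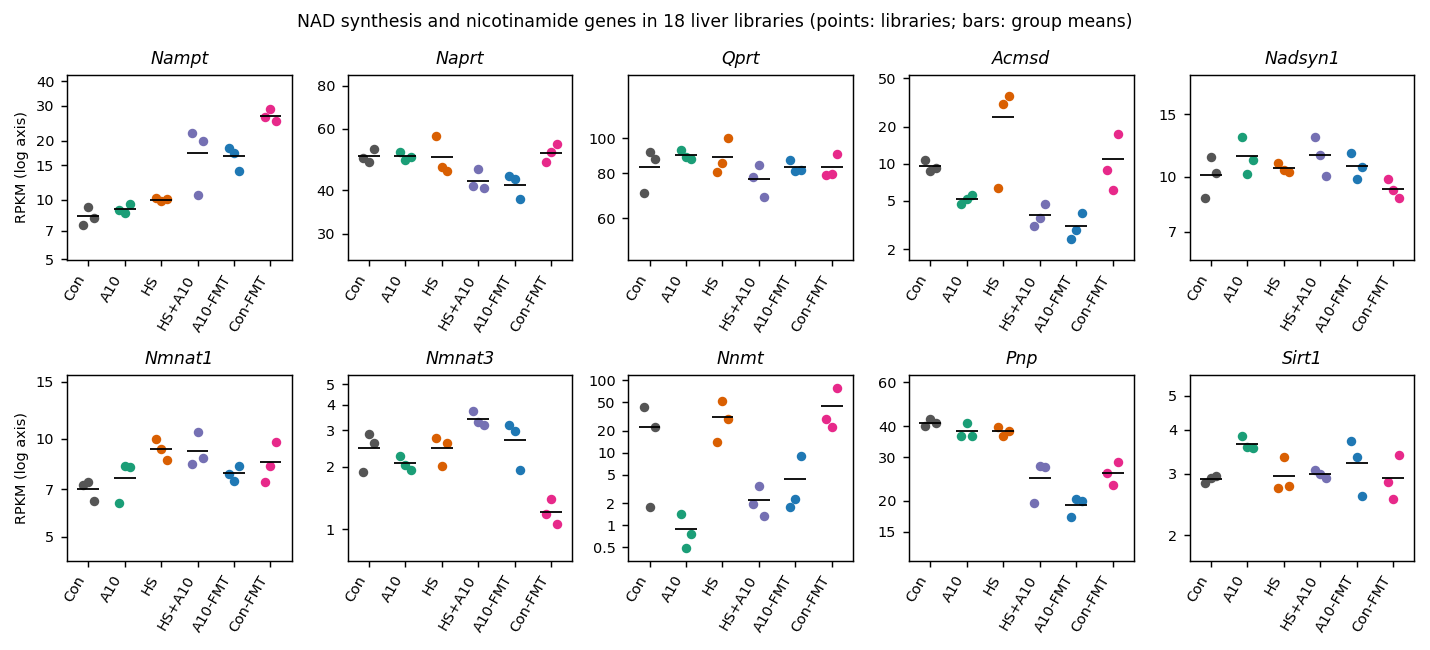
RPKM (log axis) of the 10 genes, with 1 panel per gene, 1 point per library in the 6 groups and a bar at each group mean. Nampt is highest in the 3 Con-FMT libraries (25.1 to 28.8 RPKM), Nmnat3 lowest in the same libraries (1.06 to 1.40 RPKM), and Pnp drops from at least 36.5 RPKM in Con, A10 and HS to at most 28.6 RPKM in the other 3 groups.

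Pnp, on chromosome 14 (50944303 to 50953412), encodes purine nucleoside phosphorylase, which splits purine nucleosides and also nicotinamide riboside. It was at 39.98, 42.9 and 41.0 RPKM in Con, at 36.7, 41.1 and 36.5 in A10, and at 39.8, 36.5 and 38.4 in HS. It was at 19.7, 27.5 and 27.4 RPKM in HS+A10, at 17.3, 20.3 and 19.95 in A10-FMT, and at 25.9, 23.2 and 28.6 in Con-FMT. The 9 libraries of Con, A10 and HS thus all lay above the 9 libraries of the other groups. Relative to HS, Pnp fell by 0.62 on the log2 scale in HS+A10 (standard error 0.11, limma adjusted p = 0.00732) and by 0.55 in Con-FMT (standard error 0.11, limma adjusted p = 0.00347). The mean in A10-FMT was 19.2 RPKM against 38.2 in HS, a log2 change of -0.96, which is given without a p because this difference was known when the genes were picked. Pnp was also lower in A10-FMT than in Con-FMT (log2 change -0.41, limma adjusted p = 0.0202), as Nampt was. That call was lost without A10-FMT 1, Con-FMT 1 or Con-FMT 3 (log2 changes of -0.34, -0.41 and -0.34), after median scaling (-0.34), after quantile normalization (-0.30) and in the fit of these 2 groups alone. Its close copy Pnp2 was at 0.01 RPKM in 1 library and listed at 0 in the others. Exons of Pnp overlap those of the annotated gene Gm49342 on the same strand, and the counting may have split or shared their reads.

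Genes of the circadian clock also differed between the groups. The summed level of 16 clock genes was 65.4 to 115 RPKM in Con, 85.1 to 148 in A10 and 91.9 to 103 in HS, against 220 to 319 in HS+A10, 216 to 320 in A10-FMT and, in Con-FMT, 211 to 290. Of the 15 that could be tested, 8 rose and 4 fell in HS+A10 relative to HS, 9 rose and 4 fell in A10-FMT, and 9 rose and 3 fell in Con-FMT, and in HS+A10 relative to A10 8 rose and 3 fell. Relative to Con, where neither Nampt nor Pnp was called, 2 rose and 2 fell in HS and 2 rose in A10. The 2 that rose were in both cases the clock repressors Nr1d1 (2.71 in HS and 2.45 in A10) and Nr1d2 (1.44 and 1.39), and the calls in A10 were lost without Con 3 or A10 3. Between A10-FMT and Con-FMT, where Nampt and Pnp were called, 1 clock gene was, Hlf (0.81). Dbp, a clock-driven transcription factor, had a mean of 1.73 RPKM in HS, 65.8 in HS+A10, 77.9 in A10-FMT and 53.4 in Con-FMT. Arntl, a core activator of the clock, fell in the same 3 groups by 1.94, 2.11 and 1.78 on the log2 scale. Within Con, A10 and HS, Nampt stayed between 7.43 and 10.2 RPKM and Pnp between 36.5 and 42.9 RPKM. The sum adds clock genes that rose and clock genes that fell, so its height does not describe the state of the clock. The sources used here do not give the hour at which livers were taken. The part of the clock genes in the values of Nampt and Pnp was not tested.

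**Figure D2:**
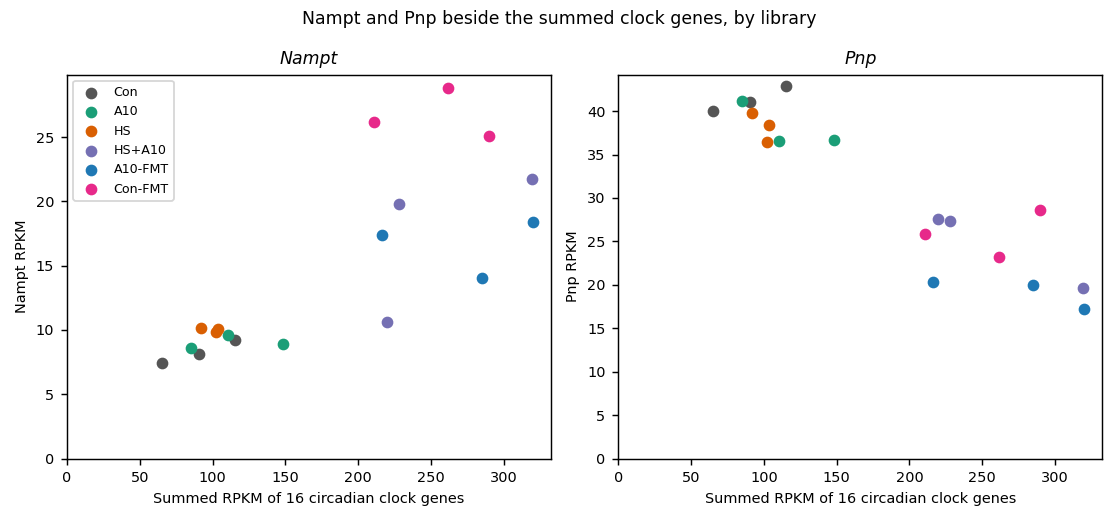
Nampt (left) and Pnp (right), in RPKM, against the summed RPKM of 16 circadian clock genes, with 1 point per library colored by group. The 9 libraries of Con, A10 and HS sit at clock sums of at most 148 RPKM with low Nampt and high Pnp, and the 9 libraries of the other groups at 211 RPKM or more.

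Nmnat1 and Nmnat3 encode the enzymes that complete NAD from its mononucleotides, in the nucleus and in mitochondria. Nmnat3 (chromosome 9, 98287433 to 98420533) was low throughout. It was at 1.90, 2.87 and 2.62 RPKM in Con, at 2.27, 2.05 and 1.94 in A10, and at 2.75, 2.02 and 2.62 in HS. It was at 3.71, 3.30 and 3.20 RPKM in HS+A10, at 3.20, 2.99 and 1.93 in A10-FMT, and at 1.19, 1.40 and 1.06 in Con-FMT. The Con-FMT libraries were the lowest of all 18, and the HS+A10 libraries did not overlap those of HS, A10 or Con. Of all genes, 27.4% did not overlap between HS+A10 and HS and 43.0% between HS+A10 and A10. The change of Nmnat3 in HS+A10 relative to HS (0.35) was not called (limma adjusted p = 0.126). Nmnat3 fell by 0.64 on the log2 scale in Con-FMT relative to HS (standard error 0.14, limma adjusted p = 0.00403) and exceeded its Con-FMT level in A10-FMT by 0.73 (limma adjusted p = 0.00213). It was higher in HS+A10 than in A10 by 0.51 (limma adjusted p = 0.0156), a call lost without A10 3 (0.48), whose library lay between the other A10 libraries, without HS+A10 1 (0.46), and without Con 3 and A10 3 together (0.48).
In Con-FMT, Nmnat3 and Nampt thus moved in opposite directions, with Nmnat3 at 0.494 of its mean in HS.

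Nmnat1 (chromosome 4, 149467569 to 149485210) was at 7.19, 7.37 and 6.44 RPKM in Con and at 10.0, 9.28 and 8.63 in HS, with no overlap. It was the gene of the 10 that was called in HS compared with Con, with a log2 change of 0.36 (standard error 0.11, limma adjusted p = 0.0350). Without Con 3 the change was 0.31 (limma adjusted p = 0.117), and the call was also lost without Con 1, HS 1 or HS 2 (0.38, 0.32 and 0.37). The median change of all genes in this comparison was 0.14, and after scaling all libraries to the same median the change of Nmnat1 was 0.20 and was not called. In A10, HS+A10, A10-FMT and Con-FMT its libraries ranged from 6.33 to 10.5 RPKM, with no call.

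Acmsd, on chromosome 1 (127729413 to 127767564), encodes a decarboxylase that draws an intermediate of the kynurenine pathway away from NAD synthesis. It was at 10.8, 8.79 and 9.25 RPKM in Con and at 4.66, 5.20 and 5.53 in A10. In HS it was at 6.39 RPKM in replicate 1 and at 30.6 and 35.8 in replicates 2 and 3. It was at 3.10, 3.57 and 4.69 RPKM in HS+A10, at 2.44, 2.87 and 3.96 in A10-FMT, and at 8.96, 6.13 and 17.5 in Con-FMT. All libraries of HS+A10 and A10-FMT were below all HS libraries, which themselves spread over 5.6-fold. Acmsd fell by 2.11 on the log2 scale in HS+A10 (standard error 0.45, limma adjusted p = 0.0146) and by 2.34 in A10-FMT (standard error 0.45, limma adjusted p = 0.00298) relative to HS. It was lower in A10-FMT than in Con-FMT (log2 change -1.44, limma adjusted p = 0.0357), and the mean in Con-FMT was 3.52 times that in A10-FMT. The change of Con-FMT relative to HS was -0.90 (limma adjusted p = 0.160), and that of HS relative to Con was 0.95 (limma adjusted p = 0.145).
The height of HS rested on HS 2 and HS 3. Without HS 1, Acmsd was called in HS relative to Con (log2 change 1.69) and in Con-FMT relative to HS (-1.64). The call in HS+A10 was lost without HS 2, HS 3 or HS+A10 1 (-1.80, -1.69 and -2.01). The call between A10-FMT and Con-FMT was lost without A10-FMT 1, A10-FMT 2, Con-FMT 1 or Con-FMT 3 (-1.32, -1.41, -1.51 and -1.06). Exons of Acmsd overlap an annotated antisense gene, and whether strand was used in counting is not given in the sources used here.

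Nnmt, on chromosome 9 (48538002 to 48607655), encodes the enzyme that methylates nicotinamide for excretion. It had the widest range of the 10 genes, from 0.49 to 79.1 RPKM. It was at 42.5, 1.76 and 22.9 RPKM in Con and at 13.9, 51.3 and 28.9 in HS. It was at 1.44, 0.49 and 0.77 RPKM in A10, at 1.95, 3.50 and 1.34 in HS+A10, and at 1.79, 2.3 and 8.91 in A10-FMT. In Con-FMT it was at 29.1, 22.6 and 79.1 RPKM. The libraries of A10, HS+A10 and A10-FMT were thus low, and those of the other groups were high except Con 2. Nnmt fell by 3.18 on the log2 scale in HS+A10 (standard error 0.81, limma adjusted p = 0.0294) and by 2.67 in A10-FMT (standard error 0.81, limma adjusted p = 0.0276) relative to HS, and the mean of HS was 13.9 and 7.24 times the means of these groups. It was lower in A10-FMT than in Con-FMT by a log2 change of -3.09 (limma adjusted p = 0.0149). In A10 compared with Con the log2 change was -2.93 (standard error 0.81) and the libraries did not overlap, but the change did not pass the test (limma adjusted p = 0.164). Neither HS relative to Con (log2 change 1.01, limma adjusted p = 0.391) nor Con-FMT relative to HS (0.43, limma adjusted p = 0.735) passed the test, and the sign of these differences turned when 1 library was left out (-0.18 without Con 2, and -0.04 without HS 1 or -0.10 without Con-FMT 3).
The spread within groups limited these comparisons, since Con libraries differed by 24.1-fold, and Con 3 (22.9 RPKM) was close to the mean of Con 1 and Con 2 (22.1 RPKM). The call in HS+A10 was lost without HS 2, HS 3, HS+A10 1, HS+A10 2 or HS+A10 3 (-2.75, -3.15, -3.14, -3.44 and -2.97), and that in A10-FMT relative to HS without HS 2, HS 3, A10-FMT 1 or A10-FMT 2 (-2.23, -2.63, -2.32 and -2.44). The latter was also lost with no filter, with median scaling, with quantile normalization and in the 4 groups of the recipient experiment (limma adjusted p from 0.0525 to 0.0681). The call between A10-FMT and Con-FMT was lost without A10-FMT 1, A10-FMT 2 or Con-FMT 3 (-2.75, -2.87 and -2.57). Con-FMT 3 held the highest Nnmt value and is the library with pancreatic RNA, whose part in that value was not tested.

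A grouping of the libraries by AOS in the label was made after the values had been seen and is given without a test. Acmsd was at 2.44 to 5.53 RPKM (median 3.96) in the 9 libraries of A10, HS+A10 and A10-FMT and at 6.13 to 35.8 RPKM (median 9.25) in the 9 libraries of Con, HS and Con-FMT, with no overlap. Of the 10204 genes, 0.402% showed no overlap in this grouping, and 0.274% did so with the AOS side lower. Nnmt was at 0.49 to 8.91 RPKM (median 1.79) against 1.76 to 79.1 RPKM (median 28.9), with Con 2 as the library that broke the order. The other 8 genes overlapped between these sides.

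**Figure D3:**
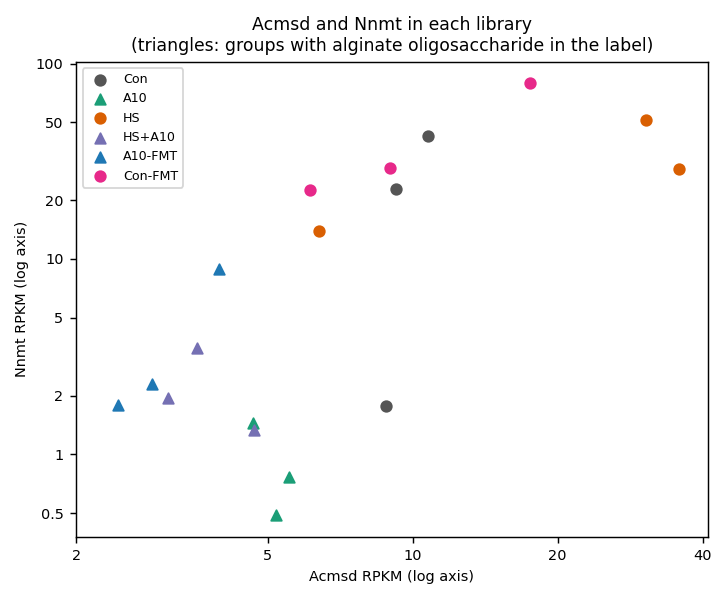
Nnmt against Acmsd in each of the 18 libraries, in RPKM on log axes, with triangles for the groups that have AOS in the label. The 9 triangles lie at 5.53 RPKM of Acmsd or less and at 8.91 RPKM of Nnmt or less, and of the 9 circles 1, Con 2, has Nnmt below 2 RPKM.

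Naprt (chromosome 15, 75890963 to 75894481) and Nadsyn1 (chromosome 7, 143795589 to 143822862) encode the entry enzyme and the closing enzyme of the Preiss-Handler route. Naprt was abundant. It was at 43.8, 43.0 and 37.7 RPKM in A10-FMT and at 48.2, 51.5 and 54.2 in Con-FMT, without overlap, and it was lower in A10-FMT by a log2 change of -0.30 (standard error 0.09, limma adjusted p = 0.0320). This call was lost without A10-FMT 2, A10-FMT 3, Con-FMT 2 or Con-FMT 3 (-0.33, -0.24, -0.30 and -0.26), and after median scaling (-0.22). It was also lost after quantile normalization, in the recipient experiment alone and in the fit of only the groups compared. Relative to HS, Naprt was lower in A10-FMT by a log2 change of -0.25 without a call (limma adjusted p = 0.0589). Without HS 3 it was called there. In the other 4 groups Naprt ranged from 40.5 to 57.4 RPKM with no call. Reads of Naprt may be shared with Eef1d, a translation factor gene at 51.3 to 69.3 RPKM whose exons overlap on the same strand. Nadsyn1 stayed between 8.72 and 12.9 RPKM in all libraries and was called in none of the 7 comparisons.

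Qprt and Sirt1 were the other genes with no call in the 7 comparisons, although median scaling gave one to Qprt, Sirt1 and Naprt in HS+A10 relative to A10. Qprt (chromosome 7, 127107770 to 127122029) encodes the enzyme through which the kynurenine pathway enters NAD synthesis and was the most abundant of the 10, with 68.7 to 100.4 RPKM over the 18 libraries and group means from 77.0 (HS+A10) to 89.7 (A10). Sirt1 (chromosome 10, 63319005 to 63339035), which encodes an NAD-dependent deacetylase, stayed between 2.54 and 3.83 RPKM. Its A10 libraries (3.83, 3.57 and 3.55) lay above the Con libraries (2.82, 2.92 and 2.96), a difference that did not pass the test (limma adjusted p = 0.296). The highest group mean was at most 1.33 times the lowest for Naprt, Qprt, Nadsyn1, Nmnat1 and Sirt1, against 48.4 times for Nnmt, 7.85 for Acmsd, 3.23 for Nampt, 2.80 for Nmnat3 and 2.15 for Pnp.

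The comparison of HS with Con asked what diet and STZ did. Of the 10 genes, 1 was called (Nmnat1, higher), against 17.7% of all genes tested, of which 15.9% were higher and 1.87% lower. The libraries did not overlap for 3 of the 10 genes, against 36.8% of all genes, and the median change of the 10 genes was 0.08 against 0.14. Without Con 3, 0 of the 10 genes were called, and over all genes 861 were called higher and 74 lower, in place of 1618 and 191. Of the cell type lists, 2 of 8 hepatocyte genes, 1 of 6 stellate, 1 of 6 endothelial, 1 of 4 erythroid and the 1 adipocyte gene tested were higher and 1 hepatocyte gene was lower, and their part was not tested.
The comparison of A10 with Con addressed AOS without diet or STZ. By limma 0 of the 10 genes were called, against 0.0686% of all genes (0.0490% higher and 0.0196% lower), with 2 at an unadjusted p under 0.05. In a limma fit of these 6 libraries alone 1 was called, Acmsd, and without Con 2 the call was Nnmt (log2 change -4.12). Over all genes 5 were called higher and 2 lower in the main fit. These counts were 24 and 16 with these libraries alone and 49 and 23 without Con 2. Without Con 3, without A10 3 and without both, 0 of the 10 genes and 0 of all genes were called. The libraries did not overlap for 3 of 10 genes, Acmsd, Nnmt and Sirt1, against 24.8% of all genes.

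HS+A10 was compared with HS to follow AOS on the background of diet and STZ. Nampt was higher, and Acmsd, Nnmt and Pnp were lower, so that 4 of 10 genes were called against 7.32% of all genes (2.95% higher and 4.37% lower). This comparison shares the HS libraries of the Pnp difference known at the choice, so its count is not read against that share. The groups did not overlap for 5 of 10 genes, against 27.4% of all genes. This count was 1 without HS 2, HS 3 or HS+A10 1, which left Pnp, and 2 without HS+A10 3. In the fit of these groups alone it was 1, which was Nnmt. Calls over all genes fell as well, from 301 higher and 446 lower to 104 and 117 without HS 2. They were 91 and 125 without HS 3, 71 and 81 without HS+A10 1 and 216 and 351 without HS+A10 3. With these groups alone they were 46 and 30. Of the cell type lists, 1 of 6 endothelial genes and the 1 adipocyte gene tested of 4 were called higher and 1 of 3 cholangiocyte genes tested was called lower. The endothelial sum was 55.5 to 67.2 RPKM in HS+A10 against 42.0 to 48.0 in HS. The cholangiocyte sum was 28.0 to 44.4 against 17.9 to 38.4, most of it Spp1 (25.85 to 40.12 against 14.89 to 34.15). Sox9 of that list was at 0.54 to 0.91 RPKM in HS+A10 against 1.43 to 2.12 in HS. The adipocyte sum was 6.65 to 9.51 against 0.65 to 5.16, nearly all of it Cidec (6.54 to 9.51 against 0.65 to 5.12). Adipoq, Plin1 and Lep were at 0.11 RPKM or less in HS+A10. The part of these cell types in the values of the 10 genes was not tested.
HS+A10 was also compared with A10, to follow diet and STZ in mice given AOS. Nampt (log2 change 0.82, limma adjusted p = 0.00530) and Nmnat3 were higher and Pnp was lower (log2 change -0.61, limma adjusted p = 0.00179), 3 of 10 genes against 20.9% of all genes (13.6% higher and 7.28% lower). Without A10 3 the count was 2, and over all genes 874 were called higher and 498 lower, in place of 1388 and 743. With median scaling the count was 6, with Naprt, Qprt and Sirt1 lower in addition, and with quantile normalization 5, without Naprt. Over all genes median scaling called 1243 higher and 1151 lower, and quantile normalization 1294 and 1100. The groups did not overlap for 7 of 10 genes, against 43.0% of all genes. Here 4 of 6 endothelial genes, 2 of 6 stellate genes, the 1 adipocyte gene tested and 1 of 8 hepatocyte genes were higher, and 2 hepatocyte genes and 1 cholangiocyte gene were lower. The endothelial sum was 55.5 to 67.2 RPKM against 39.6 to 48.5 in A10, and the stellate sum 18.6 to 25.2 against 11.1 to 13.3. Their part was not tested. Whether the change under diet and STZ differed between mice with and without AOS was tested as an interaction. By limma it was called for 0 of the 10 genes (adjusted p from 0.219 to 0.951, with 3 genes at an unadjusted p under 0.05) against 0.00980% of all genes. Those 3 genes were Pnp, Nmnat3 and Nampt. The 1 gene called among all genes belonged to the 15 clock genes tested, of which 11 had an unadjusted p under 0.05 by limma. Without HS 1 the interaction was called for 1 of the 10 genes, Acmsd, and without HS+A10 2 for 1, Nampt. Over all genes 22 were then called higher and 96 lower without HS 1, and 5 and 10 without HS+A10 2.

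A10-FMT and Con-FMT were compared with HS and with each other to follow the transferred microbiota, and both comparisons with HS share its 3 libraries. In A10-FMT the 4 called genes were Nampt, higher, and Acmsd, Nnmt and Pnp, lower, against 23.1% of all genes (2.09% higher and 21.0% lower). This count holds the difference of Pnp that was known at the choice, so it is not read against that share. It was 3, without Nnmt, with no filter, with either scaling and in the 4 groups of the recipient experiment, and 2 without HS 2 or A10-FMT 2. Over all genes 160 were called higher and 1319 lower without HS 2, and 153 and 1185 without A10-FMT 2. In Con-FMT 3 genes were called, Nampt higher and Nmnat3 and Pnp lower, against 23.6% of all genes (4.61% higher and 19.0% lower). This count rests on the same HS libraries and is not read against its share either. The libraries did not overlap for 6 and 4 of 10 genes, against 37.4% and 35.0% of all genes. Most changes of all genes were downward here, with a median of -0.16 for A10-FMT and -0.12 for Con-FMT. After median scaling the calls in A10-FMT were split into 639 higher and 516 lower, in place of 213 and 2145. The splits of the other comparisons are given with the processing alternatives. Of the 8 macrophage and Kupffer cell genes, 5 were called lower in A10-FMT than in HS, and their sum was 46.2 to 58.7 RPKM against 68.4 to 115. So were 3 of 6 endothelial, 3 of 8 hepatocyte, 1 of 3 cholangiocyte and 1 of 4 erythroid genes. In Con-FMT 3 of 4 erythroid genes were lower, with a sum of 875 to 3618 RPKM against 2885 to 10038, as were 2 of 6 stellate genes, 1 hepatocyte gene and 1 endothelial gene, and 1 other endothelial gene was higher. No marker of these lists was at 0 in every library, and their part in the values of the 10 genes was not tested.
In A10-FMT compared directly with Con-FMT, 6 of 10 genes were called against 18.8% of all genes (6.72% higher and 12.0% lower). This comparison shares the A10-FMT libraries of the Pnp difference known at the choice, so its count is not read against that share. Nmnat3 was higher in A10-FMT, and Nampt, Naprt, Acmsd, Nnmt and Pnp were lower. The libraries did not overlap for 7 of 10 genes, against 31.5% of all genes. Without Con-FMT 3, the library with pancreatic RNA, 2 genes were called, Nampt and Nmnat3, and the count was 3 without A10-FMT 1 or A10-FMT 2. Over all genes the calls were 651 higher and 982 lower without Con-FMT 3, in place of 686 and 1228. They were 391 and 1168 without A10-FMT 1 and 440 and 738 without A10-FMT 2. Of the 10 genes, 4 were called with median scaling or quantile normalization, without Naprt and Pnp. Of 7 neutrophil genes the 2 that could be tested were lower in A10-FMT, with a sum over the list of 1.20 to 2.50 RPKM against 4.92 to 8.04. So were 2 of 8 hepatocyte, 2 of 6 endothelial and 1 of 3 cholangiocyte genes, and the part of these genes was not tested.

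**Figure D4:**
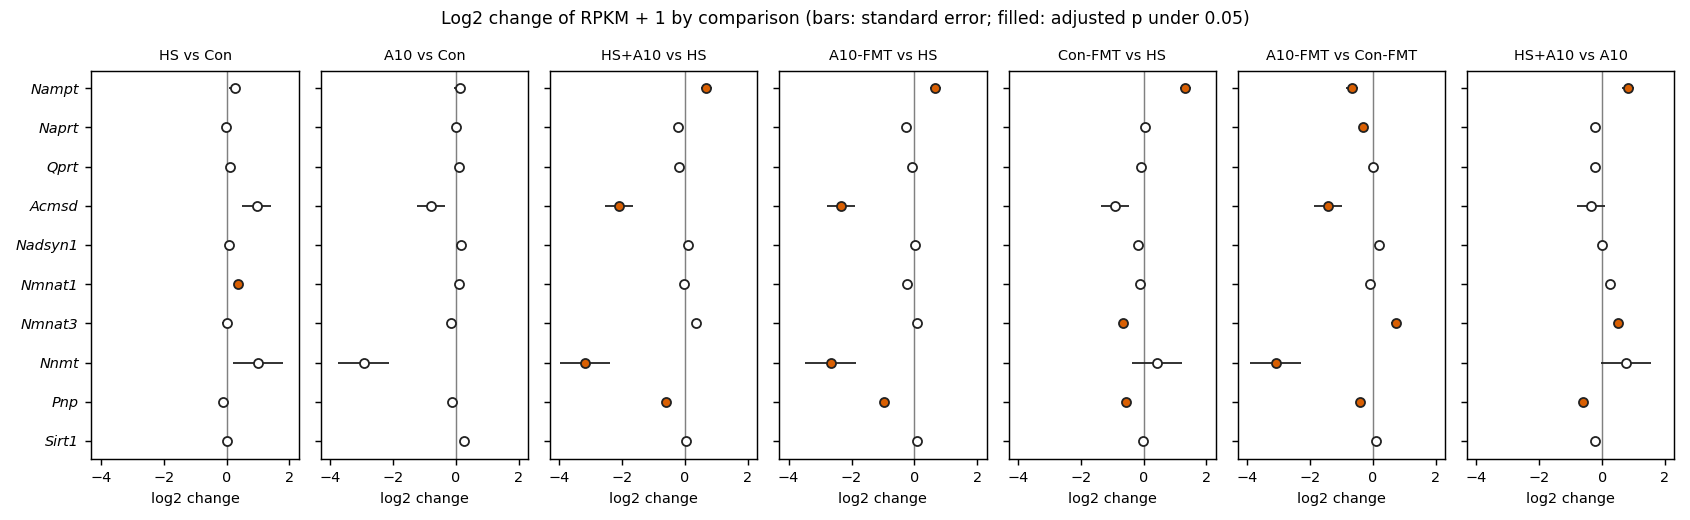
Log2 change of RPKM + 1 for the 10 genes (rows) in the 7 comparisons (panels), with bars for the standard error and filled points for an adjusted p under 0.05. Nampt lies to the right of 0 in the 3 comparisons with HS that add AOS or microbiota (0.66 to 1.32), where Pnp lies to the left of 0 (-0.96 to -0.55), and Nnmt and Acmsd have the widest bars (standard errors of 0.81 and 0.45).

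The other genes of the NAD network were followed in lists that were likewise fixed with earlier results known. Their counts stand beside the shares of all genes called, which were 15.9% higher and 1.87% lower in HS relative to Con, 2.09% higher and 21.0% lower in A10-FMT relative to HS, and 4.61% higher and 19.0% lower in Con-FMT relative to HS, and nothing particular to a list is read from them. The kynurenine pathway, which feeds Qprt and Acmsd, had 9 tested genes of 10. In HS relative to Con 2 rose and 0 fell. Tdo2, which opens the pathway, rose from 393 ± 63.9 to 574 ± 12.5 RPKM (SD, n = 3; log2 change 0.56, limma adjusted p = 0.00864), and Kmo, the kynurenine hydroxylase, from 100.4 ± 11.7 to 155 ± 25.4 RPKM (SD, n = 3; 0.61, limma adjusted p = 0.0143). In A10-FMT relative to HS 0 rose and 3 fell, Kmo (-0.62), Kyat3 (-0.62) and Kynu (-0.53), but after median scaling 0 of these 3 calls were kept, and in HS the call of Kmo was lost (0.43), as it was without Con 3 and A10 3 together (0.63). The median change of the list was 0.26 in HS relative to Con and 0.07 in A10-FMT relative to HS, against 0.14 and -0.16 over all genes. In Con-FMT 1 rose, Tdo2 (0.39), and in HS+A10 1 rose, Aadat (0.36). Relative to Con-FMT, A10-FMT had higher Afmid (0.68) and Ido2 (0.47) and lower Kmo (-0.49). In HS+A10 relative to A10, Kmo (0.76) and Aadat (0.75) were higher, and Haao (-0.66), which makes the substrate that Acmsd draws away, was lower. In A10 relative to Con 0 were called, with 2 at an unadjusted p under 0.05 by limma.

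Other genes of NAD and NADP synthesis, salvage and transport had 7 tested of 11. Slc25a51, the carrier that brings NAD into mitochondria, was at 25.7 to 35.8 RPKM in Con-FMT against 9.82 to 17.5 in HS and 10.2 to 15.03 in A10-FMT, with log2 changes of 1.10 relative to HS (limma adjusted p = 0.000650) and -1.16 for A10-FMT against Con-FMT (limma adjusted p = 0.000579). Con-FMT livers thus held the highest Nampt and Slc25a51 and the lowest Nmnat3 of the 6 groups by mean. Nmrk1, which turns nicotinamide riboside into the mononucleotide, was higher in A10-FMT relative both to HS (0.59) and to Con-FMT (0.67) and higher in HS+A10 than in A10 (0.76). It was lowest by mean in A10, at 9.32 RPKM. Nnt, the mitochondrial transhydrogenase that couples NADH to NADPH, rose from 21.5 ± 3.15 RPKM in Con to 36.7 ± 3.11 in HS (SD, n = 3; log2 change 0.75, limma adjusted p = 0.000818), and it was higher in HS+A10 than in A10 (0.53). Nudt12, which splits NADH, was also higher in HS+A10 than in A10 (0.51), and Nadk, the kinase that makes NADP, was lower in A10-FMT than in HS (-0.36). Nt5e, an ectoenzyme that splits nucleotides outside the cell, averaged 2.79 RPKM in Con and 8.48 in HS, but 2.21 in A10-FMT mice and 2.08 in Con-FMT mice. It rose in HS relative to Con (1.30) and fell in both groups of recipients relative to HS (-1.54 and -1.63 for A10-FMT and Con-FMT). In all, 2 genes rose and 0 fell in HS relative to Con, 0 were called in A10 relative to Con and in HS+A10 relative to HS (4 and 3 at an unadjusted p under 0.05 by limma), 1 rose and 2 fell in A10-FMT, 1 rose and 1 fell in Con-FMT and in A10-FMT relative to Con-FMT, and 3 rose and 0 fell in HS+A10 relative to A10. The median change of the list was 0.33 in HS relative to Con, -0.09 in A10-FMT and -0.19 in Con-FMT relative to HS.

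Of the NAD-consuming enzymes, 15 of 17 were tested beside Sirt1. In HS 2 rose and 0 fell relative to Con, the mitochondrial deacetylase Sirt3 (0.65) and Parp9 (0.49). In A10-FMT 0 rose and 4 fell relative to HS, among them Parp9 (-0.50), the NAD hydrolase Cd38 (-0.47) and Parp3 (-0.44), a share of the list near the 21.0% of all genes called lower. After median scaling 0 of these 4 calls were kept, and the call of Parp9 in HS was lost (0.31). The median change of the list in A10-FMT was -0.10, against -0.16 over all genes. In Con-FMT 1 rose, Tiparp (1.29), and 2 fell, Parp9 (-0.50) and Parp14 (-0.53). In HS+A10 relative to HS and in A10 relative to Con 0 were called, with 4 and 1 at an unadjusted p under 0.05 by limma. A10-FMT relative to Con-FMT had higher Sirt7 (0.44) and lower Tiparp (-1.29) and Cd38 (-0.43), and HS+A10 relative to A10 had higher Sirt3 (0.56) and Sirt5 (0.43), calls lost without A10 3 (0.51 and 0.47), and for Sirt5 also without Con 3.

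The list of nicotinamide oxidation and the methyl donor cycle, which supplies the methyl groups used by Nnmt, had 8 tested of 8. Mat1a, which makes S-adenosylmethionine in liver, rose from 423 ± 24.5 RPKM in Con to 1006 ± 65.9 in HS (SD, n = 3; log2 change 1.25, limma adjusted p = 0.000536). In A10-FMT relative to HS Bhmt (-0.96) and Mat1a fell and Mat2a (0.38) rose. Mat2a was also called between the recipient groups (0.45 higher on the log2 scale in A10-FMT), and Mat1a was higher in HS+A10 than in A10 (0.83). The aldehyde oxidases Aox1 and Aox3, which oxidise nicotinamide, were not called in any of the 7 comparisons.
The list of purine and pyrimidine nucleosides, in which Pnp acts, had 7 tested of 10. Upp2, a uridine phosphorylase of liver, was at 6.61 to 32.8 RPKM in HS and rose in HS+A10 (log2 change 2.68), A10-FMT (3.20) and Con-FMT (2.84), the groups in which Pnp fell. Xdh, which makes urate, fell in HS+A10 relative to HS (-0.50), Hprt, which salvages purine bases, in A10-FMT (-0.43, lost after median scaling at -0.25), and Cda, a cytidine deaminase, in Con-FMT (-1.55). In each of these 3 comparisons 1 gene rose and 1 fell. In HS relative to Con Hprt rose (0.36) and Upp2 fell (-1.37), and both calls were lost without Con 3 (0.30 and -1.37). In A10-FMT relative to Con-FMT Cda was higher (0.97) and the guanine deaminase Gda lower (-0.37). In HS+A10 relative to A10 Gda (0.38) and Hprt (0.28) were higher and Xdh was lower (-0.42), and the call of Hprt was lost without A10 3.
Of the 62 calls in the 5 lists, 44 were kept after median scaling and 18 were lost, with 0 changes of sign. Beside those named above, the lost calls were Hprt in HS, Nadk and Mat1a in A10-FMT and Parp14 in Con-FMT relative to HS, Kmo and Gda in A10-FMT relative to Con-FMT, and Gda and Hprt in HS+A10 relative to A10. Of the 9 calls in HS relative to Con, 7 were kept without Con 3 and 6 without Con 3 and A10 3, and of the 13 in HS+A10 relative to A10, 10 were kept without A10 3.

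**Figure D5:**
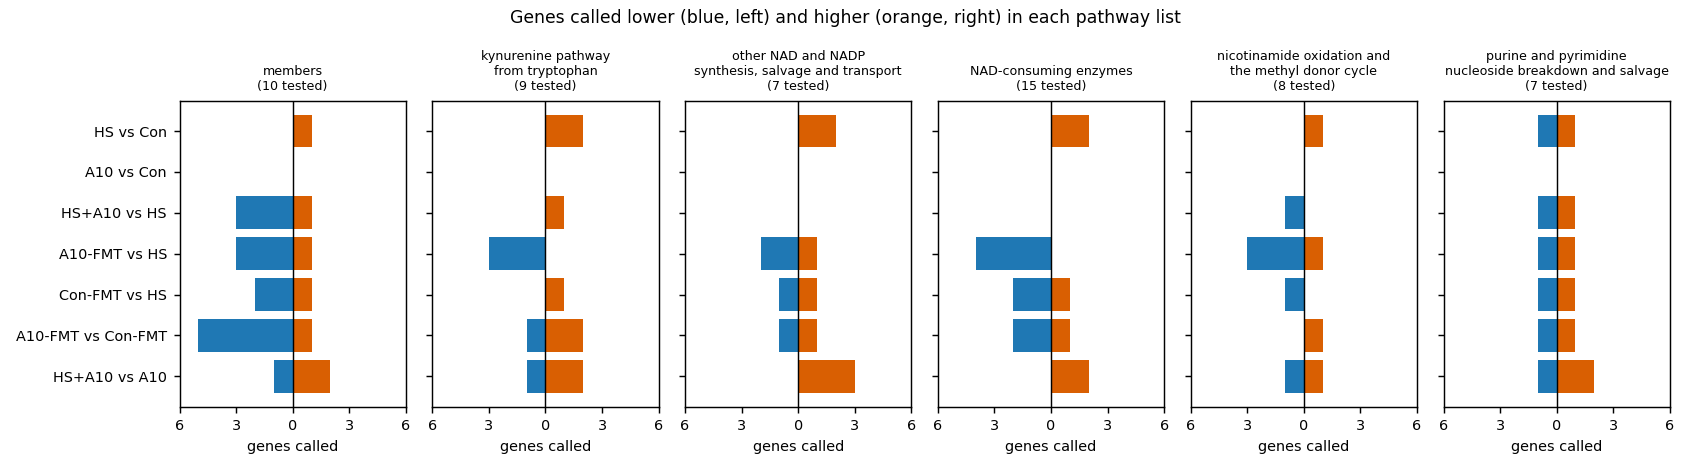
Number of genes called lower (to the left) and higher (to the right) in the 10 genes and in 5 further pathway lists (panels), for each of the 7 comparisons (rows). In A10 relative to Con no list has a call, and in A10-FMT relative to HS 3 of 9 kynurenine genes and 4 of 15 NAD-consuming enzymes are lower and 0 higher, calls that median scaling removes.

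Among all tested genes, those whose log2(RPKM + 1) ran closest to Nampt over the 18 libraries were Coq10b (Pearson's r 0.96), Wdr45b (0.95) and Gtf2h1 (0.92). Coq10b, which serves coenzyme Q in mitochondria, ranged from 8.28 to 57.1 RPKM. Closest to Acmsd were Abce1 (0.93), Arfgap2 (0.90) and Gbf1 (0.90), and closest to Nnmt were Tmem214 (0.87), Rars (0.85) and Lrrc59 (0.85), whose levels moved over a much narrower range than Nnmt (13.3 to 21.2 RPKM for Rars). Between the 10 genes, Nampt and Pnp had an r of -0.76. The libraries share their groups, so these values describe a pattern over 6 groups and were not tested.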

How the data were processed

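Liver RNA-seq of 18 libraries was grouped by the labels. Polyadenylated RNA was sequenced, and the authors deposited 1 RPKM value per gene and library with 2 decimals. The methods of the study name SOAPaligner 2.20 and reference genes for placing the reads. The submitters' processing notes name Bowtie 0.12.2 and mm10 instead, and which of these made the deposited values is not known. The test of the study, DEGseq, was not used because replicate spread does not enter it.

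The fit used limma 3.58.1 in R 4.3.3 on log2(RPKM + 1), with 1 mean per group, a variance trend, a filter at a mean of 1 RPKM, and Benjamini-Hochberg adjustment over 10204 genes. It was tested on simulated data. Positions are from the GRCm38 annotation, promoters from RefSeq. Relative depth was read from the step size of low values in 14 genes, and the number of reads is unknown.

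The 10 genes, the pathway lists and the tests were chosen with earlier results of these data known. Named are all 10 genes, at most 3 called genes of a list per comparison by adjusted p, and the 3 genes most like Nnmt, Acmsd and Nampt. Named outside this rule, after their values were seen, were Arntl, Eef1d, Aox1, Aox3, Mat1a in A10-FMT and the AOS grouping. A gene of the methyl donor list and a promoter window are not reported here. The deviations of same-numbered libraries from their group means had correlations from -0.093 to 0.262. The highest were those of HS+A10 and HS, at 0.227 for replicate 1 and 0.262 for replicate 3. The main fit did not pair the libraries, and a replicate block was tried as an alternative.

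The settings also tried were no filter, a filter at a mean of 5 RPKM, a pseudocount of 0.1, median scaling and quantile normalization. Others were no variance trend, a replicate block, the 12 libraries of the recipient experiment and only the groups compared. The threshold of the study (adjusted p of at most 0.001 and log2 change of at least 1) was also tried. Each library of the groups in a comparison was left out in turn. Leaving out Con 3 and A10 3 together, and the pathway lists without them, were added after seeing the data.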

Additional observations from a re-analysis of the deposited data

How the results depend on the processing

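Counts are of the 10 genes called. The calls over all genes also moved with these settings, so a changed count is not read as a result about the 10 genes. In HS relative to Con the count of 1 became 0 with no filter, median scaling, quantile normalization, only the groups compared, the threshold of the study, and without Con 3 and A10 3. In A10 relative to Con it rose from 0 to 1 with only the groups compared. In HS+A10 relative to HS it fell from 4 to 2 with no filter (Acmsd and Pnp) and to 1 with only the groups compared. Over all genes 301 higher and 446 lower calls became 225 and 323 with no filter. With only the groups compared they became 46 and 30. In HS+A10 relative to A10 the count of the 10 genes rose from 3 to 6 with median scaling and to 5 with quantile normalization. With the filter at a mean of 5 RPKM, Nmnat3 was not tested. The count was then 2 in HS+A10 relative to A10, 2 in Con-FMT relative to HS and 5 in A10-FMT relative to Con-FMT. In A10-FMT relative to Con-FMT it fell from 6 to 5 with no filter (without Acmsd) and to 4 with either scaling or only the groups compared (without Naprt and Pnp) and in the 4 groups of the recipient experiment (without Naprt and Acmsd), and in A10-FMT relative to HS from 4 to 3 with no filter, either scaling and the 4 groups of the recipient experiment. Under the threshold of the study it was 1 in Con-FMT relative to HS (Nampt) and 0 in the other comparisons. Leaving out 1 library gave 0 to 1 in HS relative to Con, in A10 relative to Con and in the interaction, 1 to 4 in HS+A10 relative to HS, 2 to 4 in A10-FMT relative to HS and relative to Con-FMT, 3 to 4 in Con-FMT relative to HS and 2 to 3 in HS+A10 relative to A10. The causes were not tested, except that the fits without a library and with only the groups compared hold fewer libraries. Nnmt changed sign in HS relative to Con (-0.18 without Con 2, range -0.18 to 1.81) and in Con-FMT relative to HS (-0.04 without HS 1 and -0.10 without Con-FMT 3, range -0.10 to 0.86).

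Scaling moved the split of all called genes. Median scaling gave 398 higher and 486 lower in HS relative to Con, in place of 1618 and 191, 579 and 356 in HS+A10 relative to HS in place of 301 and 446, 858 and 1240 in Con-FMT relative to HS in place of 470 and 1943, 1302 and 958 in A10-FMT relative to Con-FMT in place of 686 and 1228, and 1243 and 1151 in HS+A10 relative to A10 in place of 1388 and 743. The signs of the calls of the 10 genes did not change under any alternative. Recomputed changes of single genes were counted for those called in the main fit and for all comparisons of Nnmt, Acmsd, Nampt and Pnp. Of these 493, 422 kept their sign and their side of the threshold, 64 lost the call, 4 gained one and 3 changed sign. Calls gained by other genes, such as Qprt and Sirt1 in HS+A10 relative to A10 with either scaling, lie outside this count.

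With the replicate block, 1, 0, 4, 4, 3, 6 and 3 genes were called in the 7 comparisons in the order of HS relative to Con, A10 relative to Con, HS+A10, A10-FMT and Con-FMT relative to HS, A10-FMT relative to Con-FMT and HS+A10 relative to A10, and 0 in the interaction, so the block changed no count.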
